A study of Mus musculus with 48 samples.

Results

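Immature natural killer (NK) cells of mice with a conditional deletion of Bach2 were compared with immature NK cells of Cre control mice, across all genes. The libraries titled cKO, iNK and cWT, iNK were used, replicates 1 to 3 of each, which makes 6 of the 48 RNA-seq libraries of the study. Cells of the group labelled cKO (Bach2flox/flox Ncr1Cre) came from animals with loxP-flanked Bach2 alleles and Cre recombinase expressed from Ncr1. Cells of the group labelled cWT (Ncr1Cre) carried the Cre alone, so by the labels both groups shared the Cre. All libraries were from spleen, and the labels give no treatment. The ages of the animals, the number of animals behind a library and the surface markers of the gates were not stated in the labels. Libraries of the fractions mNK1, mNK2 and NK of the same 2 genotypes, of mixed chimeras of Bach2 KO and WT marrow, and of WT subsets were used for comparison. The labels do not say whether the 3 replicates of a group are separate animals. The p-values therefore cover only library-to-library spread, part of which may be technical.

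BACH2 is a transcriptional repressor of the bZIP family that pairs with small Maf proteins and can occupy DNA sites that AP-1 factors such as Fos and Jun also bind. In T cells it is known for holding back effector genes. NK cells mature in the spleen from a CD27-bearing immature stage, rich in the transcription factor TCF-1 (Tcf7), to cells that carry CD11b (Itgam), KLRG1 and a large store of granule proteases. Ncr1 encodes NKp46, an activating receptor of NK cells, and Cre made from this gene acts in cells that express it.

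Promoter sequences of 3 genes that rose in cKO iNK are shown because they hold the DNA letters that bZIP factors recognise. Each runs 5′ to 3′ from 250 bases before to 50 bases after a start site, is taken from RefSeq on GRCm38.p6, and lies on the minus strand. Capitals mark TGACGTCA in Dusp1 and Ppp1r15a, the site of CREB and ATF dimers, and a match to TGANTCA in Gzmb, the core of AP-1 and BACH sites.
Dusp1, chr17:26508423-26508722: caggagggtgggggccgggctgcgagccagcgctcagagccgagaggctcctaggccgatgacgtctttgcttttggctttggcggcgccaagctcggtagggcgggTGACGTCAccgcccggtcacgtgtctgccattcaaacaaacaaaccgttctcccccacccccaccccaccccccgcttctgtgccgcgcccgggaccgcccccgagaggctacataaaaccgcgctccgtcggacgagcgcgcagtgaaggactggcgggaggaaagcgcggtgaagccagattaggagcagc
Ppp1r15a, chr7:45526219-45526518: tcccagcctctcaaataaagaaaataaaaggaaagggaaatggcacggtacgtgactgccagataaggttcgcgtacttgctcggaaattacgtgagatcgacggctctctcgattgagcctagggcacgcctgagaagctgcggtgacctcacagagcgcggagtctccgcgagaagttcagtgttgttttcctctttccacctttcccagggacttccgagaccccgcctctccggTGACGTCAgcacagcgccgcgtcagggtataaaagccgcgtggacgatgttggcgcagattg
Gzmb, chr14:56262285-56262584: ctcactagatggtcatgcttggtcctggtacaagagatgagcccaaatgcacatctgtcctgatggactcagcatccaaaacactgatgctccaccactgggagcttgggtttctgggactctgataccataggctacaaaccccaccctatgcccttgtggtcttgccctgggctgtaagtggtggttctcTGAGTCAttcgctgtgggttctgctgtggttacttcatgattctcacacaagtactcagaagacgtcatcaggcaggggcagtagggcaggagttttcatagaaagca

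Both strands were searched for TGANTCA and TGACGTCA, which differ by 1 letter in length, so that a match to one is not a match to the other. RefSeq promoters were found for 20 of the 26 genes that rose, as 27 start sites, and for 8 of the 10 that fell, as 10 start sites. TGACGTCA stood in 3 of the 27 promoters (11.1%), those of Dusp1, Nfkbid and Ppp1r15a, against 1.79% of all 32851 promoters and 3.06% of those of tested genes. TGANTCA stood in 2 of the 27 (7.41%), against 7.81% of all promoters and 5.08% of those of tested genes, and in 1 of the 10 promoters of the genes that fell, that of Sh2d1b1. These matches are a description of the letters in the windows and were not tested.

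The iNK libraries held 14698300 to 19619465 counts each, and 3 counts, taken as the detection floor of 1 library, stood for 0.132 to 0.198 CPM (the count scaled to library size with TMM factors). This floor covers counting error only. After the low-count filter 12258 genes were tested. The libraries carried the markers of an immature fraction: Cd27 averaged 425 ± 31.1 CPM in cKO iNK and 433 ± 7.85 CPM in cWT iNK, against 70.1 ± 3.78 CPM in cKO mNK2 and 83.3 ± 3.67 CPM in cWT mNK2 (SD, n = 3 each). Itgam averaged 6.33 ± 1.37 CPM in cKO iNK and 7.09 ± 1.02 CPM in cWT iNK, against 487 ± 17.5 and 496 ± 28.5 CPM in cKO and cWT mNK2. In cKO and cWT mNK1 Cd27 averaged 283 ± 19.8 and 354 ± 23.5 CPM, and Itgam 227 ± 6.29 and 188 ± 17.2 CPM. T cell markers, given below, were abundant in the iNK libraries, and the part of T cells in the Cd27 reads was not tested. In a principal component analysis of the 6 iNK libraries the first component held 38.1% of the variance and did not separate the genotypes. The ribosomal protein genes varied widely, with a sum over 72 genes of 15147, 24194 and 14011 CPM in cKO iNK, against 36078, 19214 and 26690 CPM in cWT iNK.

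Bach2 was not lower in the libraries labelled cKO. It had 17.8, 17.1 and 23.8 CPM in cKO iNK, against 11.8, 12.9 and 15.9 CPM in cWT iNK (log2 fold change 0.53 ± 0.22 SE, edgeR adjusted p = 0.552). All 3 cKO libraries lay above the cWT libraries. In the chimeras, labelled KO and WT, Bach2 averaged 2.11 ± 0.927 CPM in KO and 15.5 ± 2.21 CPM in WT libraries (SD, n = 4 each). A count over the whole gene does not show whether the floxed part is missing, and the labels do not name that part. Directions below follow the library labels.

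Ncr1, the gene from which the Cre is made, set the cWT libraries apart from one another. It had 485, 559 and 576 CPM in cKO iNK, against 78.6, 56.1 and 351 CPM in cWT iNK. The cWT libraries numbered 1 and 2 were low, the cWT library numbered 3 lay between them and the cKO libraries, and the groups did not overlap. The same order held in the other fractions: cWT libraries 1, 2 and 3 had 160, 182 and 788 CPM in mNK1, against 1272 to 1382 CPM in cKO mNK1. In mNK2 cKO libraries had 2059 to 2424 CPM, against 342, 279 and 1130 CPM in cWT. The difference in iNK did not pass the edgeR test (log2 fold change 1.73 ± 0.75 SE, adjusted p = 0.592), and without the cWT libraries numbered 1 and 2 it was 0.58 ± 0.14 (edgeR adjusted p = 0.327). In WT iNK libraries, which belong to another experiment and were scaled apart, Ncr1 averaged 1229 ± 120 CPM (SD, n = 4). The labels give 1 genotype for all 3 cWT libraries, and whether these carry the Ncr1Cre allele in the same dose was not tested. If they do not, the contrast of cKO with cWT also compares that dose.

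**Figure D1:**
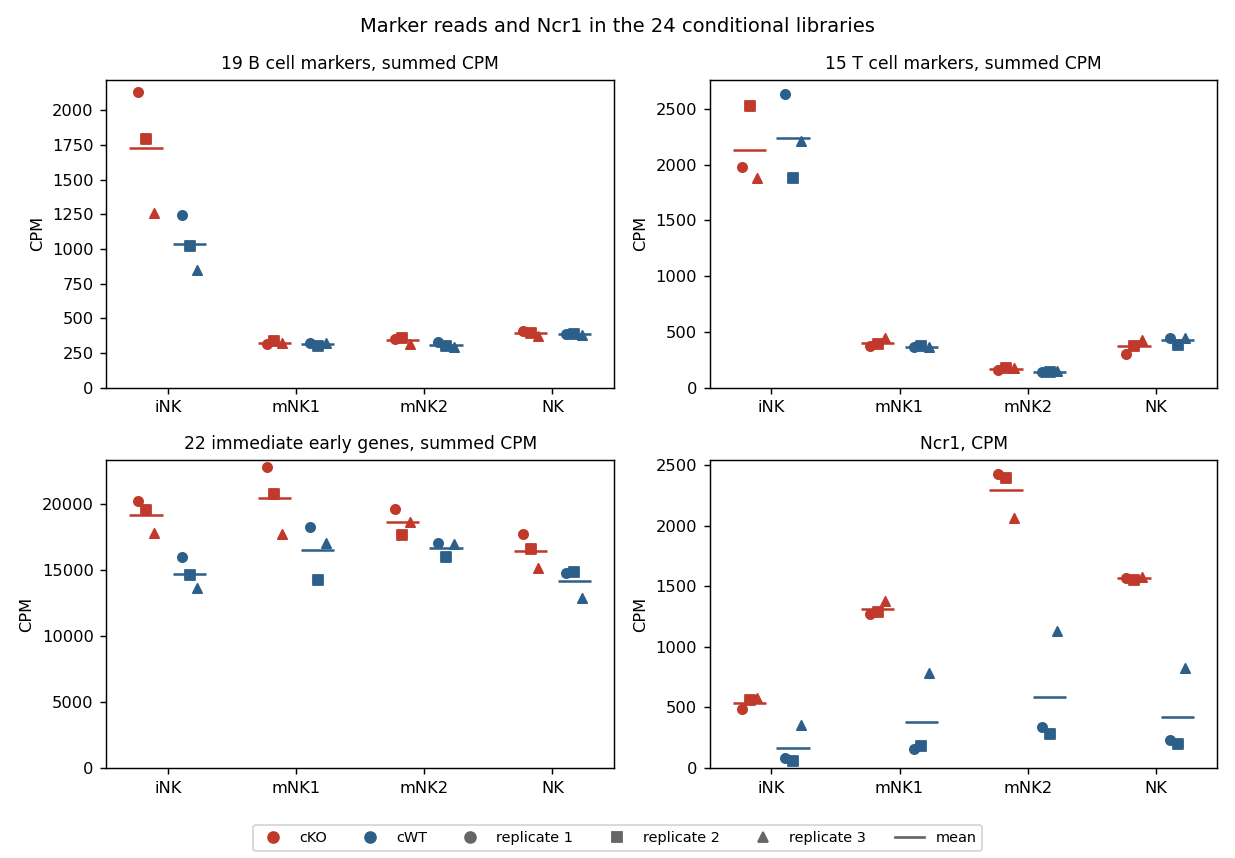
Summed CPM of 19 B cell markers, 15 T cell markers and 22 immediate early genes, and CPM of Ncr1, in each of the 24 conditional libraries by fraction, cKO left of cWT, with symbols for the replicate number and a line for the mean. B and T cell marker reads are higher in the iNK libraries than in the other fractions, and Ncr1 is low in the cWT libraries numbered 1 and 2 of every fraction.

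Across all genes, 36 of 12258 (0.294%) passed the edgeR quasi-likelihood test at an adjusted p under 0.05, of which 26 (0.212%) were higher and 10 (0.0816%) lower in cKO iNK. The differences were small: absolute log2 fold changes ran from 0.38 to 2.19 among the higher genes and from 0.44 to 1.14 among the lower, and 5 higher and 1 lower reached 2-fold. In all 36 the cKO and cWT libraries did not overlap, while over all genes the cKO libraries lay above the cWT libraries in 8.91% and below them in 4.17%. At an unadjusted p under 0.05, 7.78% of the genes passed, 5.38% higher and 2.4% lower. Just inside the threshold were Blk, Lpcat1 and Gpr160 (edgeR adjusted p = 0.04997 each), and just outside it Tmem131 (0.05015), Tmem154 (0.05268) and Slc2a10 (0.05368). The count rested on single libraries: it was 14 without cKO iNK replicate 1 or 2, 25 without cKO iNK replicate 3, 18 and 17 when cWT iNK replicate 1 or 2 was left out, and 5 without cWT iNK replicate 3. The genes that passed in every such fit were 4, namely Dusp1, Klrb1b, Cd69 and Serpine2. Without the cWT libraries numbered 1 and 2 of every fraction the edgeR count was 0. That fit left 1 cWT library per fraction, assumed to vary like the other groups. The median ratio of its log2 fold changes to those reported was 1.12. All 36 genes kept their direction in it, but this was largely set in advance, because their cKO and cWT libraries did not overlap.

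**Figure D2:**
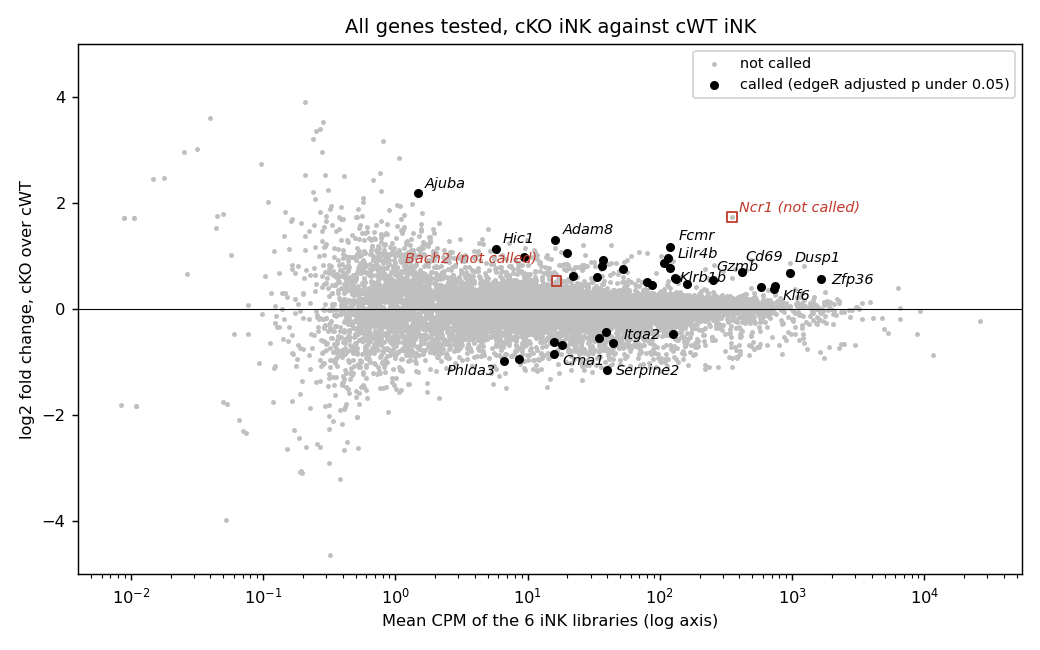
Log2 fold change of cKO over cWT iNK (vertical axis, cut at -5 and 5, which leaves out 4 genes) against the mean CPM of the 6 iNK libraries (log axis), with 1 point per gene tested. The 36 called genes are black and stand on both sides of 0, and Ncr1 and Bach2 (squares) were not called.

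Dusp1, Klf6 and Rgs1, genes that many stimuli induce, rose in cKO iNK. Dusp1, a phosphatase that switches off the MAP kinases p38 and JNK, had 1198, 1184 and 1157 CPM in cKO iNK, against 764, 744 and 705 CPM in cWT iNK. The libraries of each genotype lay close together and far from the other genotype (log2 fold change 0.68 ± 0.09 SE, edgeR adjusted p = 0.00059). Klf6, a zinc finger transcription factor, had 872, 793 and 796 CPM in cKO iNK, against 654, 620 and 621 CPM in cWT iNK (0.38 ± 0.08, edgeR adjusted p = 0.024). Rgs1, which shortens chemokine receptor signals by speeding GTP hydrolysis on G proteins, had 619, 750.0 and 610 CPM in cKO iNK, against 523, 479 and 480.1 CPM in cWT iNK (0.42 ± 0.09, edgeR adjusted p = 0.0319).

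Klf6 and Rgs1 were the called members among 22 immediate early genes. Both missed the threshold in each of the 6 fits without 1 iNK library, and Rgs1 was at 0.27 without cKO iNK replicate 2. At an unadjusted p under 0.05, 14 of the 22 (63.6%) were higher and 1 lower, and the median log2 fold change was 0.37, against 0.02 over all genes tested. Their sum was 20245, 19618 and 17847 CPM in cKO iNK, against 15985, 14612 and 13632 CPM in cWT iNK, so the genotypes did not overlap. The B cell marker sums, given below, also did not overlap and ran in the same order over the libraries of each genotype. With the B cell marker level as a covariate Klf6 was at 0.30, Rgs1 at 0.29, Fos at 0.23 and Junb at 0.06. The AP-1 subunit genes did not pass the test. Fos had 1831, 1663 and 1169 CPM in cKO iNK, against 908, 855 and 898 CPM in cWT iNK (0.81 ± 0.21, edgeR adjusted p = 0.148). Junb, the most abundant of them, had 7526, 7317 and 6545 CPM in cKO iNK, against 6048, 5555 and 4711 CPM in cWT iNK (0.39 ± 0.13, edgeR adjusted p = 0.297). In both genes all cKO libraries were above all cWT libraries, but by less than the test required. Of 20 tested AP-1, BATF, BACH and small Maf genes 0 were called, 8 were higher at an unadjusted p under 0.05 and the median was 0.29. Among 12 tested MAP kinase feedback genes Dusp1 was the called one. Of 12 tested heat shock genes 0 were called, with 1 higher and 1 lower at an unadjusted p under 0.05 and a median of -0.01. The whole conditional experiment carried a high level of these genes: in WT iNK libraries, scaled apart, the same 22 immediate early genes summed to 2324 to 3094 CPM.

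Tnfaip3, Nfkbid and Zfp36 rose as well. Tnfaip3, which encodes the ubiquitin-editing enzyme A20, a brake on NF-kB, had 155, 144 and 180.0 CPM in cKO iNK, against 107, 108 and 107 CPM in cWT iNK (0.57 ± 0.10, edgeR adjusted p = 0.011). Nfkbid, whose product IkBNS acts on NF-kB in the nucleus, had 164, 138 and 166 CPM in cKO iNK, against 101, 114 and 96.2 CPM in cWT iNK (0.59 ± 0.10, edgeR adjusted p = 0.011). Zfp36, which encodes tristetraprolin, a protein that marks cytokine mRNAs for decay, had 2123, 1906 and 1863 CPM in cKO iNK, against 1421, 1237 and 1300.2 CPM in cWT iNK (0.57 ± 0.12, edgeR adjusted p = 0.0243). These were 3 of the 18 genes of the NF-kB feedback and mRNA decay list, on which 6 were higher and 0 lower at an unadjusted p under 0.05 and the median was 0.19. Ppp1r15a, whose product GADD34 restores translation after stress, had 878, 866 and 811 CPM in cKO iNK, against 671, 619 and 595 CPM in cWT iNK (0.44 ± 0.08, edgeR adjusted p = 0.011). Tagap, a GTPase-activating protein of activated lymphocytes, rose by a similar amount, with 180.4 to 199 CPM in cKO iNK and 131 to 140 CPM in cWT iNK (0.48 ± 0.09). Secreted cytokine and chemokine genes did not pass, with 0 of 15 called and 3 higher and 0 lower at an unadjusted p under 0.05. Tnf, a cytokine of early activation, had 53.9, 58.7 and 53.3 CPM in cKO iNK, against 39.5, 37.7 and 40.4 CPM in cWT iNK (0.50 ± 0.14, edgeR adjusted p = 0.209).

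**Figure D3:**
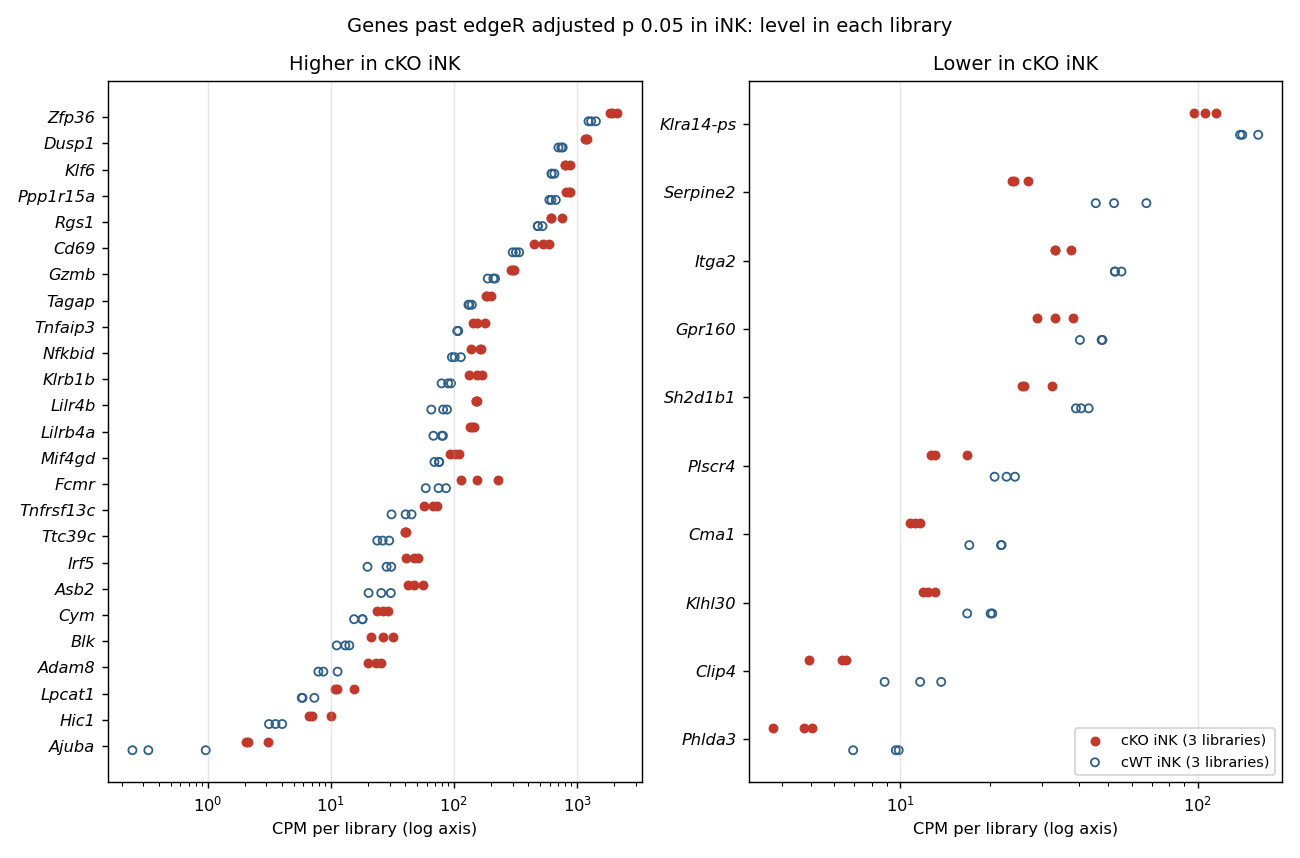
CPM on a log axis in each iNK library for 25 of the 26 genes called higher (left) and the 10 called lower (right), with filled points for cKO above open points for cWT in each row. In every row drawn the 3 cKO points and the 3 cWT points do not overlap, and the distances are small beside the span of levels between genes.

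Among surface molecules that guide retention and migration, Cd69 and Itga2 moved in opposite directions. Cd69, an early activation antigen that removes the exit receptor S1PR1 from the surface, had 528, 588 and 446 CPM in cKO iNK, against 339, 299.96 and 319 CPM in cWT iNK (0.71 ± 0.10, edgeR adjusted p = 0.000819). The lowest cKO library was well above the highest cWT library. Itga2, the collagen receptor subunit CD49b that is used to sort NK cells, had 33.0, 37.3 and 33.1 CPM in cKO iNK, against 52.6, 52.7 and 55.4 CPM in cWT iNK (-0.64 ± 0.11, edgeR adjusted p = 0.0115). They were the 2 called genes of 22 on the trafficking list, whose median was 0.01. Cd69 also stands on a list of type 1 innate lymphoid cell (ILC1) genes, where it was the called one of 14 tested. On that list 9 (64.3%) were higher and 0 lower at an unadjusted p under 0.05, against 5.38% and 2.4% of all genes tested. The median was 0.37. Rora had 56.5, 51.4 and 69.6 CPM in cKO iNK, against 34.5, 40.2 and 38.3 CPM in cWT iNK (0.65 ± 0.17, edgeR adjusted p = 0.148).

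Klrb1b and the pair Lilrb4a and Lilr4b rose among receptor genes. Klrb1b, which encodes an inhibitory NKR-P1 receptor for a ligand found on most healthy cells, had 131, 153 and 169 CPM in cKO iNK, against 79.4, 89.7 and 94.7 CPM in cWT iNK (0.78 ± 0.10, edgeR adjusted p = 0.00059). Lilrb4a, the inhibitory immunoglobulin-like receptor gp49B, had 139.99, 134 and 145 CPM in cKO iNK, against 81.4, 79.7 and 68.1 CPM in cWT iNK (0.87 ± 0.16, edgeR adjusted p = 0.0155). Lilr4b had 155, 151 and 152 CPM in cKO iNK, against 87.8, 81.7 and 65.5 CPM in cWT iNK (0.96 ± 0.16, edgeR adjusted p = 0.011). These 2 genes are near-identical neighbours and may share reads, so they are not 2 separate measurements.

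Other NK receptors did not pass the test. Klrb1b was the called one of 29 tested receptor genes, whose median was -0.11. At an unadjusted p under 0.05, 3 (10.3%) were higher and 9 (31.0%) lower, against 5.38% and 2.4% of all genes tested. Klrb1c, which encodes the NK1.1 antigen and is the most abundant of them, averaged 1699 ± 146 CPM in cKO iNK and 1871 ± 111 CPM in cWT iNK (SD, n = 3 each), and the libraries overlapped. Klra14-ps, a pseudogene of the Ly49 family, fell to 96.9, 115 and 106 CPM in cKO iNK, against 139, 141 and 159.7 CPM in cWT iNK (-0.47 ± 0.09, edgeR adjusted p = 0.0215). Members of the Klra and Klrb1 families resemble each other closely, and the counting may assign their reads to each other. Sh2d1b1, which encodes EAT-2, an adaptor of SLAM family receptors, had 25.6, 32.2 and 26.1 CPM in cKO iNK, against 42.98, 38.9 and 40.5 CPM in cWT iNK (-0.55 ± 0.10, edgeR adjusted p = 0.0215).

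Of the granule genes Gzmb was the one that passed. Gzmb, which encodes the serine protease granzyme B, had 303, 305 and 288 CPM in cKO iNK, against 188, 209 and 216 CPM in cWT iNK (0.55 ± 0.10, edgeR adjusted p = 0.0155). Even in cKO iNK it stood far under its level in mNK2, which averaged 7888 ± 1306.5 CPM in cKO and 4394 ± 185 CPM in cWT (SD, n = 3 each). Of 21 cytotoxic granule genes 1 was higher and 4 lower at an unadjusted p under 0.05. Gzma had 787.5, 1248 and 852 CPM in cKO iNK, against 1847, 1172 and 1820 CPM in cWT iNK (-0.75 ± 0.29, edgeR adjusted p = 0.55), and the genotypes overlapped. Nkg7, a granule membrane gene and the most abundant of the list, had 1827, 3252 and 1829 CPM in cKO iNK, against 4638, 2463 and 3886 CPM in cWT iNK (-0.67 ± 0.33, edgeR adjusted p = 0.663). Both were high in the libraries with the most ribosomal protein reads, which were cKO replicate 2 and cWT replicates 1 and 3. In a fit with the ribosomal protein level as a covariate, added after seeing the data, the log2 fold change of Nkg7 was -0.14 (edgeR adjusted p = 0.773).

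On the list of 18 late maturation genes Gzmb rose and Cma1 fell. Cma1, a chymase gene that rises strongly in mature NK cells of the WT subsets, had 10.7, 11.6 and 11.2 CPM in cKO iNK, against 21.8, 17.04 and 21.9 CPM in cWT iNK (-0.86 ± 0.17, edgeR adjusted p = 0.0298). At an unadjusted p under 0.05, 3 of the list were higher and 3 lower, and the median was -0.11. Klrg1 averaged 40.1 ± 4.03 CPM in cKO iNK and 39.5 ± 9.75 CPM in cWT iNK, and Itgam, given above, overlapped as well. Of 20 early NK genes 0 were called, 2 were higher and 1 lower at an unadjusted p under 0.05, and the median was -0.03. Tcf7 had 929, 729 and 772 CPM in cKO iNK, against 789.7, 812 and 797 CPM in cWT iNK (0.02 ± 0.10, edgeR adjusted p = 0.960). Serpine2, which encodes the serine protease inhibitor protease nexin 1, showed the largest fall among the called genes: it had 26.8, 24.2 and 23.7 CPM in cKO iNK, against 52.3, 67.2 and 45.4 CPM in cWT iNK (-1.14 ± 0.16, edgeR adjusted p = 0.00126). Every cWT library held well over the highest cKO value.

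Of 27 tested transcription factors of the NK lineage 0 were called, with 6 higher and 2 lower at an unadjusted p under 0.05. Eomes, which with T-bet sets NK cell identity, had 251, 209 and 248 CPM in cKO iNK, against 277, 286 and 312 CPM in cWT iNK (-0.30 ± 0.08, edgeR adjusted p = 0.137). Tbx21, the gene of T-bet, averaged 488 ± 28.5 CPM in cKO iNK and 436 ± 24.9 CPM in cWT iNK (SD, n = 3 each). Outside that list, called higher were Irf5, an interferon regulatory factor best known from myeloid and B cells, and Hic1, a zinc finger repressor. Irf5 had 51.5, 40.7 and 47.0 CPM in cKO iNK, against 31.0, 28.4 and 19.9 CPM in cWT iNK (0.82 ± 0.16, edgeR adjusted p = 0.0215). Hic1 had 6.602, 7.02 and 9.97 CPM in cKO iNK, against 4.03, 3.56 and 3.15 CPM in cWT iNK (1.14 ± 0.23, edgeR adjusted p = 0.0258).

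The largest fold among the called genes was that of a gene near the floor. Ajuba, a LIM domain scaffold protein of cell junctions and the Hippo pathway, had 2.15, 2.04 and 3.12 CPM in cKO iNK, against 0.33, 0.245 and 0.965 CPM in cWT iNK (2.19 ± 0.43, edgeR adjusted p = 0.0238), from 143 and 28 counts in all. Adam8, a membrane metalloprotease of leukocytes, had 25.5, 20.2 and 23.3 CPM in cKO iNK, against 11.4, 8.71 and 7.92 CPM in cWT iNK (1.30 ± 0.23, edgeR adjusted p = 0.0115). Asb2, the substrate adaptor of a ubiquitin ligase, had 42.4, 55.6 and 47.1 CPM in cKO iNK, against 25.7, 30.7 and 20.3 CPM in cWT iNK (0.92 ± 0.19, edgeR adjusted p = 0.0258). Further higher genes outside the B cell set were Ttc39c (0.60 ± 0.11), Cym (0.62 ± 0.12), Mif4gd (0.46 ± 0.09) and the phospholipid acyltransferase gene Lpcat1 (0.98 ± 0.22), with edgeR adjusted p from 0.011 to 0.04997.

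Other lower genes ranged more widely in level. Phlda3, a p53 target that restrains AKT, had 4.72, 5.04 and 3.73 CPM in cKO iNK, against 6.93, 9.87 and 9.65 CPM in cWT iNK (-0.98 ± 0.21, edgeR adjusted p = 0.0313). It was the called one of 15 tested p53 targets, whose median was -0.14. Clip4, a relative of microtubule-binding proteins, had 4.94, 6.57 and 6.37 CPM in cKO iNK, against 8.85, 11.6 and 13.7 CPM in cWT iNK (-0.94 ± 0.18). Plscr4, of the phospholipid scramblase family, had 12.7, 13.02 and 16.7 CPM in cKO iNK, against 20.7, 22.7 and 24.3 CPM in cWT iNK (-0.67 ± 0.11, edgeR adjusted p = 0.00972). Klhl30 (-0.61 ± 0.13) and the orphan receptor gene Gpr160 (-0.44 ± 0.10) completed the lower genes. Gpr160 had 28.8, 33.1 and 38.0 CPM in cKO iNK, against 47.8, 40.2 and 47.5 CPM in cWT iNK.

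Lists of other processes held 0 called genes: cytokine receptors (22 tested), checkpoint and TNF family genes (17), antioxidant and heme genes (14), interferon response genes (22) and cell cycle genes (30). Their medians lay between -0.01 and 0.10. At an unadjusted p under 0.05 the higher and lower members were 3 and 0 of the cytokine receptors, 2 and 1 of the checkpoint genes, 3 and 0 of the antioxidant genes, 1 and 0 of the interferon genes and 1 and 0 of the cell cycle genes. Srxn1, a sulfiredoxin gene that BACH factors can repress, had 10.3, 11.7 and 9.31 CPM in cKO iNK, against 6.93, 6.87 and 8.63 CPM in cWT iNK (0.47 ± 0.13, edgeR adjusted p = 0.191).

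Reads of B cells were higher in cKO iNK. The 19 B cell markers found in the files summed to 2130, 1794 and 1259 CPM in cKO iNK, against 1247, 1023 and 848 CPM in cWT iNK. The lowest cKO library lay just above the highest cWT library. The log2 difference was 0.72, and the two-sided exact permutation test gave p = 0.1, the smallest value that 3 against 3 libraries allow. Of the 19 markers 2 were called higher, Fcmr and Blk, 15 were higher at an unadjusted p under 0.05, and the median was 0.78. Fcmr, the Fc receptor for IgM, had 227, 153 and 115 CPM in cKO iNK, against 86.2, 75.0 and 59.0 CPM in cWT iNK (1.17 ± 0.23, edgeR adjusted p = 0.0298). Blk, a Src family kinase of B cells, had 32.0, 26.6 and 21.4 CPM in cKO iNK, against 14.1, 13.1 and 11.2 CPM in cWT iNK (1.06 ± 0.23). Cd79a, a chain of the B cell receptor and the most abundant marker, had 440.2, 446 and 238 CPM in cKO iNK, against 312, 196 and 172 CPM in cWT iNK. Tnfrsf13c, the BAFF receptor, is expressed by B cells but was not on the list; it had 73.3, 67.3 and 57.2 CPM in cKO iNK, against 45.3, 40.5 and 31.1 CPM in cWT iNK (0.76 ± 0.16, edgeR adjusted p = 0.0298). In bulk RNA more cells of a type and more RNA per cell cannot be told apart.

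T cell markers were abundant in both genotypes and did not separate them. The 15 markers found summed to 1981, 2523 and 1876 CPM in cKO iNK, against 2636, 1880 and 2210 CPM in cWT iNK (log2 difference -0.07, two-sided exact permutation p = 0.7), and the direction turned without cKO iNK replicate 3 (0.01) or without cWT iNK replicate 1 (0.05). Cd3e averaged 490.0 ± 34.1 CPM in cKO iNK and 453 ± 36.3 CPM in cWT iNK (SD, n = 3 each), against 14.2 ± 1.998 CPM in cKO mNK1 and 8.98 ± 1.34 CPM in cWT mNK1. Of the other cell types, 0 of 11 myeloid and dendritic cell markers, 0 of 10 neutrophil markers and 0 of 7 erythroid and platelet markers were called by edgeR, and at an unadjusted p under 0.05 the higher ones were 1, 1 and 0, with 0 lower. Of the 15 T cell markers 0 passed in either way. The sums of the myeloid markers were 131 to 186 CPM in cKO iNK and 134 to 243 CPM in cWT iNK. The neutrophil markers summed to 35.9 to 55.2 CPM in cKO iNK and 21.8 to 35.0 CPM in cWT iNK, with a median log2 fold change of 1.504. Their part in the results was not tested. A list of 12 red pulp macrophage genes, chosen after their values were seen, summed to 598, 455 and 232 CPM in cKO iNK, against 650, 319 and 104 CPM in cWT iNK.

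The B cell level moved with the genotype, and a fit with the log2 sum of B cell markers as a covariate was therefore run. In it 1 of the 36 genes passed, Klrb1b (1.08 ± 0.14, edgeR adjusted p = 0.00166). All 36 kept their sign, the median ratio to the reported log2 fold changes was 0.86, and standard errors were larger. The log2 fold change of Fcmr was then 0.25 ± 0.26, of Blk 0.57 ± 0.36 and of Tnfrsf13c 0.29 ± 0.22. Fcmr and Blk are themselves part of the sum used as the covariate, so their smaller values were partly built in. Tnfrsf13c is not part of that sum. Dusp1 was at 0.57 ± 0.13, Gzmb at 0.51 ± 0.17, Serpine2 at -1.27 ± 0.27 and Cd69 at 0.45 ± 0.14. In all, 9 genes moved by over 1.5 times: besides Fcmr, Blk, Tnfrsf13c and Cd69 these were Clip4 (-0.41), Plscr4 (-0.32), Gpr160 (-0.22), Mif4gd (0.29) and Ppp1r15a (0.29). The uncalled genes Fos and Junb were at 0.23 ± 0.29 and 0.06 ± 0.18. When the B and T cell marker genes were taken out of the table, 32 of the other 34 called genes still passed. This fit drops the marker genes alone and leaves B and T cell reads in all other genes. It therefore cannot show whether those reads affect the calls.

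**Figure D4:**
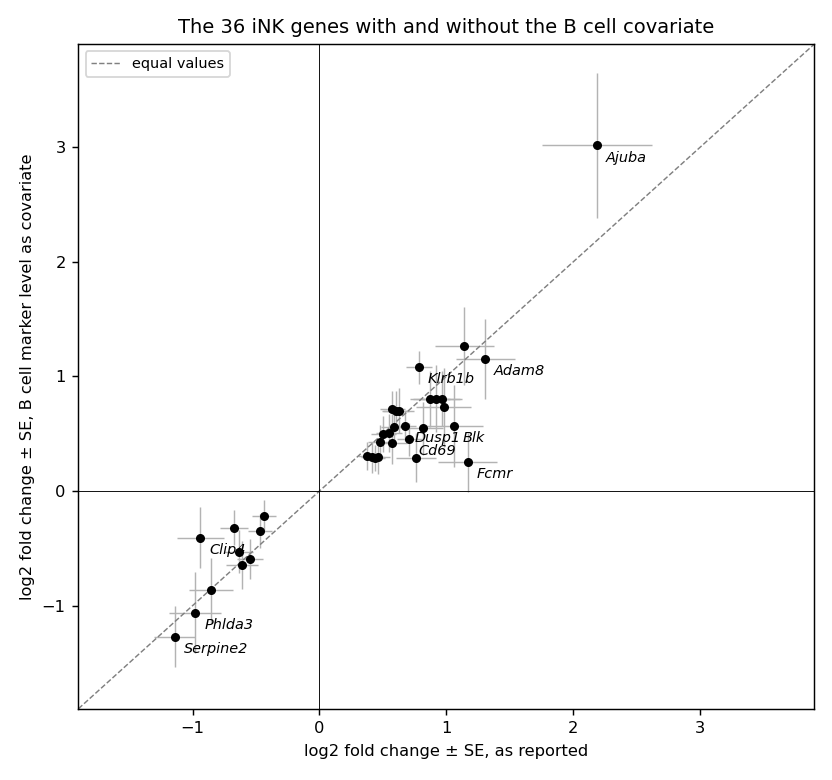
Log2 fold change of the 36 called genes with the B cell marker level as a covariate (vertical axis) against the value reported (horizontal axis), with SE bars and a dashed line of equal values. Fcmr and Blk, whose reads are part of the covariate, lie well under the line, while Klrb1b and Ajuba lie above it.

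The same contrast was run in the other fractions, each with cWT libraries of its own. The labels do not say whether same-numbered libraries of different fractions come from the same animals. Ncr1 was low in the cWT libraries numbered 1 and 2 of every fraction. Calls shared between fractions may therefore not be separate support. Of the 26 genes higher in cKO iNK, 13 were called higher in mNK1, where 0.383% of all genes were, 7 in mNK2 (0.131%) and 9 in the fraction labelled NK (0.318%). As shares of the genes called higher or lower in those fractions, these are 18.6% of 70 in mNK1, 21.9% of 32 in mNK2 and 12.9% of 70 in NK, which are 0.571%, 0.261% and 0.571% of all genes tested. Called in all 4 fractions were 7 higher genes (Dusp1, Klrb1b, Tnfaip3, Ttc39c, Gzmb, Rgs1 and Klf6) and 2 lower genes (Serpine2 and Phlda3). Of the 10 lower genes, these 2 were the ones called lower in any other fraction, where 0.188% of all genes were called lower in mNK1, 0.131% in mNK2 and 0.253% in NK. The log2 fold change of Gzmb was 1.06 ± 0.10 in mNK1 and 0.84 ± 0.10 in mNK2 (± SE), and its difference from iNK did not pass the edgeR test for either fraction (adjusted p = 0.910 and 1.000). A further 12 higher and 8 lower genes were called in no other fraction, which does not by itself show that their differences are limited to iNK cells.

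**Figure D5:**
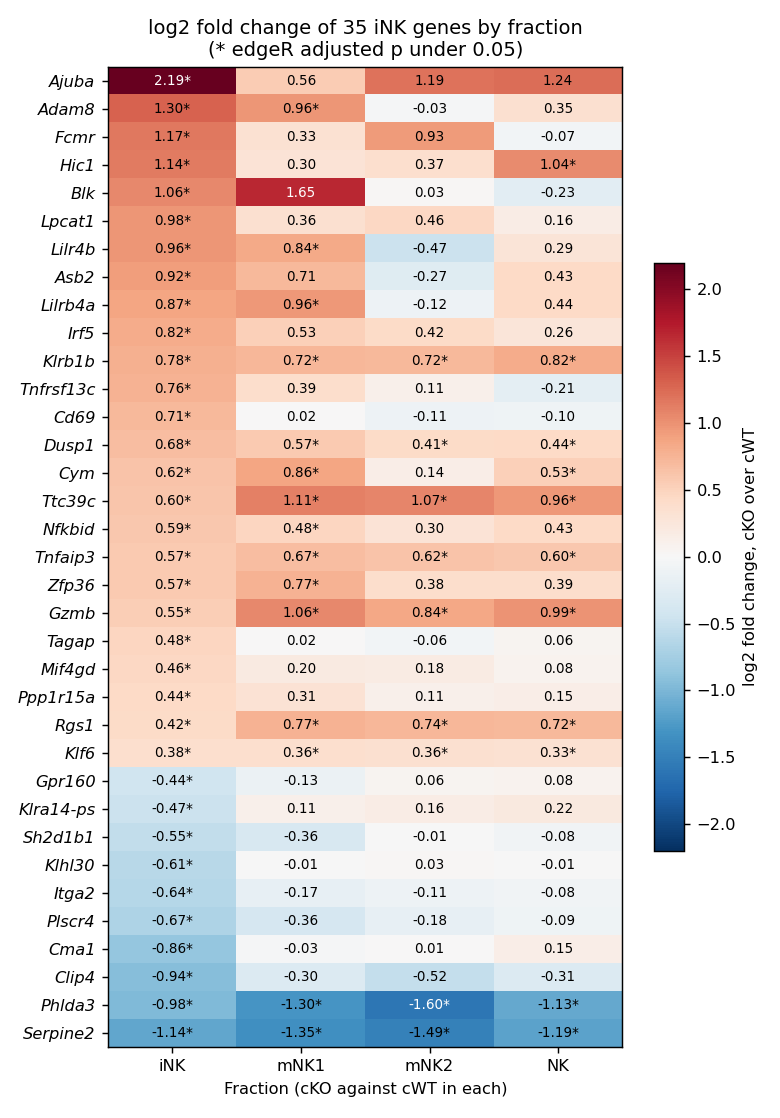
Log2 fold change of cKO over cWT for 35 of the 36 genes called in iNK (rows, ordered by the iNK value) in the fractions iNK, mNK1, mNK2 and NK, with an asterisk where the edgeR adjusted p was under 0.05. Rows such as Dusp1, Tnfaip3 and Serpine2 have 1 colour throughout, while Cd69, Tagap, Itga2 and Cma1 are coloured in iNK and near 0 elsewhere.

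The test of the difference itself gave few genes. For the iNK effect minus the mNK1 effect edgeR called 0 of 12258 genes (0%), 519 (4.23%) had an unadjusted p under 0.05, DESeq2 called 4 and limma voom 2. The edgeR count was 1 without cKO iNK replicate 2 or 3, cKO mNK1 replicate 1, cWT iNK replicate 3 or cWT mNK1 replicate 3. For the iNK effect minus the mNK2 effect edgeR called 6 genes (0.0489%), all with the higher value in iNK: Tcf7, Gpr183, Lilr4b, Cd69, E330020D12Rik and Emb. The count was 3 without cKO iNK replicate 1 or 2, cKO mNK2 replicate 3 or cWT iNK replicate 2 or 3, and 2 without replicate 1 of cKO mNK2 or of cWT mNK2. Cd69 had 58.6, 66.4 and 59.8 CPM in cKO mNK2, against 72.0, 65.5 and 61.4 CPM in cWT mNK2, where the genotypes overlapped, and its difference between the fractions was 0.81 ± 0.14 (edgeR adjusted p = 0.0173). Tcf7, whose iNK values are given above, had 36.5, 49.8 and 50.5 CPM in cKO mNK2, against 101, 92.3 and 107 CPM in cWT mNK2 (difference 1.15 ± 0.14, edgeR adjusted p = 0.00046). Lilr4b was higher in cKO iNK, as given above, and had 22.3, 27.1 and 34.6 CPM in cKO mNK2, against 45.9, 32.8 and 37.7 CPM in cWT mNK2 (difference 1.44 ± 0.23, edgeR adjusted p = 0.0153).

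In the chimeras, made with WT and Bach2-KO marrow, NK cells of each genotype were compared, and 7 of the 25 tested higher genes were called higher in KO, where 2.64% of all genes were: Klrb1b, Lilr4b, Ttc39c, Adam8, Lilrb4a, Gzmb and Ajuba. Klrb1b differed by 1.31 ± 0.07 and Gzmb by 1.17 ± 0.10 there (edgeR adjusted p = 1.43e-11 and 9.66e-08). Cd69 and Fcmr were called lower in KO chimera cells (-0.80 and -4.04), as were 2.36% of all genes. The B cell markers summed to 113 to 156 CPM in KO and 223 to 412 CPM in WT chimera cells, the T cell markers to 139.8 to 161 and 239 to 308 CPM, and the neutrophil markers to 145 to 623 and 8.26 to 61.4 CPM in KO and WT. Their part in these differences was not tested. Dusp1 did not pass (0.40 ± 0.39, edgeR adjusted p = 0.739). This fit did not pair KO and WT chimera libraries of the same number. By replicate number Dusp1 had 53.5, 39.7, 24.9 and 31.7 CPM in KO, against 42.9, 33.95, 14.015 and 23.4 CPM in WT. Each KO library lay above the WT library of its number, so the unpaired result does not show that Dusp1 was unchanged. With a replicate block 742 genes were called in the chimeras, against 531 without it. Of the 9 tested lower genes 0 were called lower in KO chimera cells, and Cma1 was called higher (0.62, edgeR adjusted p = 2.94e-05). By direction alone 6 of the 9 were higher and 3 lower in KO. Serpine2 was among the higher ones but was not called (0.87 ± 0.38, edgeR adjusted p = 0.256).

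The 36 genes called in cKO iNK were set beside maturation in WT animals, where KLRG1+ mNK2 cells were compared with iNK cells. In WT KLRG1+ mNK2 cells 12 of them were called higher and 13 lower. Of these calls 5 had the direction seen in cKO iNK and the others had the opposite one. Of the 26 higher genes 5 were called higher in WT KLRG1+ mNK2 than in WT iNK, where 15% of all genes were, and 13 were called lower, where 15.6% of all genes were. Gzmb was higher in WT KLRG1+ mNK2 by 4.43 on the log2 scale, while Cd69 (-1.97), Lilr4b (-3.94) and Asb2 (-5.89) were lower. Among the 13 were also the B cell genes Fcmr (-3.08), Blk (-2.78) and Tnfrsf13c (-2.40). The B cell marker sum averaged 361 CPM in WT iNK and 133 CPM in WT KLRG1+ mNK2, and the T cell marker sum 1106 and 81.9 CPM. The part of such reads in these differences was not tested. Of the 10 genes lower in cKO iNK, 7 were called higher in WT KLRG1+ mNK2 and 0 lower. Among these were Cma1 (5.50), Serpine2 (1.30), Itga2 (0.97) and Sh2d1b1 (0.61).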

How the data were processed

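RNA from cells kept in RNAlater was purified with a Qiagen RNeasy kit and made into libraries with the Clontech SMARTer protocol, per the labels' protocols. Reads were checked with FastQC and aligned with STAR 2.5.0 to mm9, per the submitters' processing notes. The counting tool, strand setting and annotation are not given in the sources used here. The deposited values are unnormalized counts per gene symbol, 24328 symbols per library.

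The 24 conditional libraries (8 groups of 3) were fitted together with edgeR 4.0.16 (R 4.3.3): TMM scaling, filterByExpr, robust quasi-likelihood F test and Benjamini-Hochberg adjustment over 12258 genes, called at an adjusted p under 0.05. CPM are TMM-scaled. Chimeras and WT subsets were fitted apart, so levels across experiments are not on 1 scale. Marker sums were compared with an exact permutation test. The scripts were tested on simulated data.

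Alternatives were DESeq2 1.42.0, limma 3.58.1 (voom), RLE scaling, other filters, a replicate block, the compared groups alone, leaving out libraries, and marker levels as covariates. Covariates of ribosomal protein and macrophage genes, and the fit without the cWT libraries numbered 1 and 2, were added after seeing the data. Named are the called genes, Bach2, fraction markers, of each list the called members or else the 2 with the smallest p and the most abundant, and up to 5 genes of each difference between fractions; the sixth gene of the difference from mNK2, Emb, and a few further list members were named after their values were seen. Members and lists were chosen with earlier results of these data known. A few genes counted among those tested and called are not reported here by name or drawn in the plots that label genes.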

Additional observations from a re-analysis of the deposited data

Results flagged for a closer look

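For 6 genes the difference between cKO and cWT in iNK departed from that in mNK2 by a test of the difference itself (edgeR quasi-likelihood interaction, adjusted p from 0.00046 to 0.0395). Tcf7 and Gpr183 passed in all 12 fits without 1 library, Lilr4b in 10, Cd69 in 5, and E330020D12Rik and Emb in 1 each. Tcf7 differed by 1.153 on the log2 scale, with a log2 fold change of 0.02 in iNK and -1.13 in mNK2. Gpr183, a receptor for oxysterols that guides lymphocyte position, differed by 1.593, from 0.33 ± 0.14 in iNK and -1.26 ± 0.18 in mNK2. It had 236, 249 and 198 CPM in cKO iNK, against 195, 166 and 182 CPM in cWT iNK. Lilr4b differed by 1.437 (0.96 in iNK, -0.47 in mNK2) and Cd69 by 0.8128 (0.71 in iNK, -0.11 in mNK2). E330020D12Rik differed by 1.967, with 12.3, 10.6 and 9.75 CPM in cKO iNK, against 6.07, 5.27 and 6.603 CPM in cWT iNK. Emb, which encodes embigin, differed by 0.7242 (-0.09 in iNK, -0.82 in mNK2).

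One WT iNK library lay apart from the other WT iNK libraries in its T cell marker sum, at 1257 CPM, against 1050.4 to 1063.5 CPM in the other 3. Chance sets a sample apart in about 1 group of 20.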

How the results depend on the processing

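Of the 36 genes called in iNK (26 higher, 10 lower), other settings gave these totals, with higher and lower genes in brackets: DESeq2 82 (53 and 29), limma voom 115 (100 and 15), the replicate block 67 (50 and 17), the compared groups alone 5 (4 and 1), the B cell covariate 1 (1 and 0), the ribosomal protein covariate 75 (48 and 27), and no cWT libraries numbered 1 and 2, 0 (0 and 0). Leaving out 1 library gave 5 to 25 genes, 4 to 19 higher and 1 to 8 lower. For the iNK difference minus that in mNK1, the count of 0 became 4 with DESeq2, 2 with limma voom, 4 with the replicate block, 8 with the ribosomal protein covariate and 0 to 1 without 1 library. For the iNK difference minus that in mNK2, the count of 6 became 28 with DESeq2, 14 in the compared groups alone, 51 with the replicate block, 12 with the ribosomal protein covariate, 1 with the B cell covariate, 0 without the cWT libraries numbered 1 and 2, and 2 to 6 without 1 library. The B cell marker sum ranged from 0.550 to 0.930 (log2) and the T cell sum from -0.204 to 0.0491, turning to 0.009816 without cKO iNK replicate 3. Same-numbered cKO and cWT iNK libraries deviated with correlations of -0.0661, -0.368 and 0.147. B cell marker sums fell from replicate 1 to replicate 3 in both genotypes, while ribosomal protein sums ran in different orders. These values do not settle whether the numbers pair the genotypes. Across fractions, same-numbered cWT iNK and NK libraries correlated at 0.351, 0.353 and 0.185, while cWT iNK and mNK2 gave 0.412, 0.184 and -0.00262. The causes of these changes were not tested. Depth limits the genes under about 1 CPM, where Ajuba in cWT iNK lies.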
